A study of Mus musculus with 5 samples.

Results

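The transcription factor p53, encoded by Trp53, and 9 of its known target genes (Cdkn1a, Mdm2, Ccng1, Bax, Trp53inp1, Sesn2, Phlda3, Zmat3 and Btg2) were followed in RNA sequencing of LLC tumors, 10 genes of the 13979 gene symbols shared by the tables used. The genes were taken by the symbols of the deposited tables (TRP53, CDKN1A, MDM2, CCNG1, BAX, TRP53INP1, SESN2, PHLDA3, ZMAT3 and BTG2), and each of the 10 had a value above 0 in all 5 libraries. The libraries were labelled Control, BMN, PAZA, BMN/PAZA_Low_dose (low-dose BMN/PAZA) and BMN/PAZA_High_dose (high-dose BMN/PAZA), with 1 library per group. BMN is BMN673, an inhibitor of the DNA repair enzyme PARP. PAZA is a polymer that carries 5-azacytidine, an inhibitor of DNA methyltransferases, and forms the micelles into which BMN was loaded. All 5 groups are LLC, a Lewis lung carcinoma line of C57BL/6 mice. The labels describe LLC cells kept in culture and treated for 72 h, whereas the methods of the study describe tumor tissue from mice taken the day after the last treatment. Strain, age and the number of animals behind a library are not given in the labels.

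When DNA is damaged, kinases such as ATM and CHEK2 stabilise p53, which then binds DNA as a tetramer and switches on genes that halt the cell cycle, repair DNA or start apoptosis. MDM2, itself a product of a target gene, ubiquitinates p53 and closes a feedback loop. Much of this control acts on the p53 protein, which RNA levels do not report. PARP inhibitors and 5-azacytidine both cause DNA lesions, so the target genes are a common readout of the response to either drug.

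The p53 response element is made of a pair of half-sites. A half-site is 10 bases long, and the consensus known as the p53 half-site was searched in the 250 bases before each transcription start in the RefSeq promoter table (GRCm38.p6). The consensus reads the same on both strands. The table held 9 windows for 8 of the 10 genes. Trp53inp1 and Zmat3 had no entry. At least 1 half-site was found in 5 of the 9 windows, against 7.13% of all 32851 windows of the same length. A pair with at most 13 bases between its half-sites was found in 1 of the 9 windows, the upstream start of Cdkn1a, against 21 of all windows, or 0.0639%. The second Cdkn1a start and the windows of Btg2, Phlda3 and Sesn2 held no match, which says only that these letters are not in those bases. The stretches below show the half-sites in capitals with 15 bases on each side, and for Cdkn1a the whole 250 bases, because this window held the only pair. Each is written in the direction of transcription.
Trp53, chr11:69580269-69580308, plus strand: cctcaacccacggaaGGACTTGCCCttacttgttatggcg
Mdm2, chr10:117710920-117710959, minus strand: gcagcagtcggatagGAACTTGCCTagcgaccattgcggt
Ccng1, chr11:40755447-40755486, minus strand: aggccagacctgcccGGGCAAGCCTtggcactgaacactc
Bax, chr7:45467075-45467114, minus strand: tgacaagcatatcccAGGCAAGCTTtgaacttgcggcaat
Cdkn1a, chr17:29090729-29090978, plus strand: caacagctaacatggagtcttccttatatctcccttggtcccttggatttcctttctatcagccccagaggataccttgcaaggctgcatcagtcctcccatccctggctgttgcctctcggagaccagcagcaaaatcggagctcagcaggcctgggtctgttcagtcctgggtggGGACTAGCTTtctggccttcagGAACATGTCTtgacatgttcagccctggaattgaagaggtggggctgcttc
The 2 marked half-sites of Cdkn1a begin 73 and 51 bases before the upstream start, with 12 bases between them. Only exact matches were marked, so a half-site that departs from the consensus stays in lowercase. The 10 bases directly after the second marked half-site differ from the consensus in their first base only. Which of these stretches form the response element was not tested. The 2 Cdkn1a windows differed in CpG dinucleotides, which DNA methyltransferases act on. The upstream window held 2 and the window of the second start 19, whereas the median of the 9 windows was 18 and the median of all windows was 6. Neither p53 binding nor DNA methylation was measured in these libraries.

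Levels are given per gene length, scaled so that each library sums to 1000000 over the shared symbols, and can therefore be compared between genes. The values were deposited in tables scaled separately for each pair of groups, and the common scale was set here. Differences are on the log2(level + 1) scale, which understates the change of genes with low levels. A gene was counted as higher or lower when it differed by at least 1.5-fold on that scale, 0.585 in log2. Since each group holds 1 library, replicate error could not be estimated, no test was possible, and differences are those between 2 libraries. Read counts are not given and the depth is unknown. The value of 1 fragment could be compared only within a table, where a BMN fragment weighed 0.719 of a high-dose BMN/PAZA fragment and a Control fragment 0.975 of a PAZA fragment.

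Markers of several other cell types were present, and those of fibroblasts, skeletal muscle and keratinocytes differed strongly among the libraries. All 6 leukocyte markers were above 0 in every library, with summed levels of 188 to 283, and the 6 endothelial markers summed to 36.3 to 62.5. The summed level of 6 fibroblast markers was 313 in Control, 817 in BMN, 534 in PAZA, 318 in low-dose and 350 in high-dose BMN/PAZA. The 7 skeletal muscle markers summed to 12.2, 190, 62.1, 11.2 and 215 in the same order, and 5 keratinocyte markers summed to 68.5, 205, 8.09, 1.85 and 12.8. Such markers are not those of a culture of carcinoma cells alone. In tissue RNA, fewer cells of a type and less RNA per cell cannot be told apart.

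The 10 genes did not share a direction in any treatment. Compared with Control, Cdkn1a was above in all 4 treatments, but by only 0.07 and 0.05 in low-dose and high-dose BMN/PAZA. Trp53inp1 was below in all 4. Sesn2 was below in the libraries with PAZA and level with Control in BMN (-0.0005). Mdm2 and Phlda3 were also below in all 4, but under scaling by the median ratio of genes instead of the sum Mdm2 was above Control by 0.06 in PAZA and Phlda3 by 0.04 in high-dose BMN/PAZA. None of the 10 was past 1.5-fold in 1 direction in all 4 treatments, against 3.16% of all genes, and none was higher past it in more than 1, against 10.9%. With the values of the other tables Cdkn1a would be higher in both BMN and low-dose BMN/PAZA (0.89 and 0.93). Ccng1, Bax and Sesn2, 3 of the 10, were past it in no treatment, against 48.6% of all genes.

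**Figure D1:**
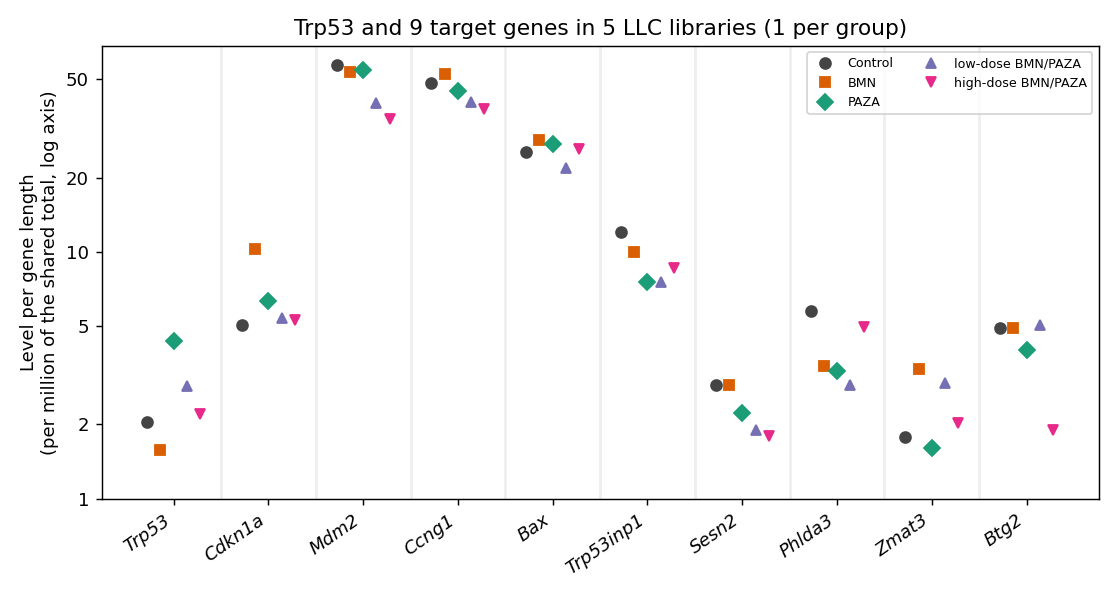
Level per gene length (log axis) of Trp53 and 9 target genes, 1 point per library and 5 libraries per gene. Mdm2 and Ccng1 hold the highest 2 places in every library, Cdkn1a is highest in BMN at 10.3, and Trp53 is highest in PAZA at 4.36.

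Trp53 lies on chr11:69580359-69591873 (plus strand, GRCm38, as are the positions that follow). Its level was 2.05 in Control, 1.57 in BMN, 4.36 in PAZA, 2.87 in low-dose and 2.20 in high-dose BMN/PAZA. PAZA held the highest level and BMN the lowest. Against Control, the log2 difference was 0.82 in PAZA, a level 2.13 times as high, and -0.24 in BMN. The PAZA difference was above that of 94.3% of all genes in that comparison. Among the 10 genes, Trp53 ranked between 6th and 10th by level, at the 24.1 to 39.8 percentile of all genes. Of the 10091 genes with a level of at least 1 in every library, the pattern of log2 levels over the 5 libraries was close to that of Snhg16, a long noncoding RNA gene that hosts small nucleolar RNAs, with a root mean square difference of 0.14, and to that of Hspb8, a small heat shock protein, at 0.15. Both were among the 3 nearest genes. None of the target genes was among the nearest genes. The nearest of them, Bax, had 32.0% of the genes nearer to Trp53 than itself.

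Mdm2 (chr10:117688875-117710758, minus strand), the ubiquitin ligase that limits p53, was among the most abundant of the 10 genes. Its level was 57.1 in Control, 53.5 in BMN, 54.7 in PAZA, 40.0 in low-dose and 34.5 in high-dose BMN/PAZA. Both BMN/PAZA libraries were below the 3 others. The log2 difference from Control was -0.50 for the low dose and -0.71 for the high dose. Median-ratio scaling brought the high-dose difference to -0.45, inside 1.5-fold.

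Cdkn1a (chr17:29090976-29100727, plus strand) encodes p21, the CDK inhibitor through which p53 arrests the cell cycle. Its level was 5.08 in Control, 10.3 in BMN, 6.35 in PAZA, 5.38 in low-dose and 5.28 in high-dose BMN/PAZA. The BMN level stood apart, 2.02 times that of Control, and the other 4 lay between 5.08 and 6.35. The log2 difference of BMN from Control was 0.89, above that of 93.9% of all genes, and both BMN/PAZA libraries were lower than BMN, by -0.82 for the low dose and -0.84 for the high dose. The high-dose difference was -0.53 under median-ratio scaling. The genes with the most similar pattern were Safb2, a nuclear scaffold attachment factor (root mean square difference 0.044), Cpxm1, a carboxypeptidase family member (0.050), and Bgn, the matrix proteoglycan biglycan of fibroblasts and other stromal cells (0.077). Bgn levels were 31.1 in Control, 62.5 in BMN and 28.9 to 35.6 in the rest. The fibroblast markers were likewise highest in BMN, and their part in the Cdkn1a difference was not tested.

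The Cdkn1a values also depended on the table they were read from. A library that appears in more than 1 table should differ between them by 1 constant, the median ratio over all genes. Of the 10 genes, 9 stayed within 0.0261% of this constant in every pair of tables, and Cdkn1a did not. After the constant, its low-dose value in the table shared with BMN was 2 times that in the table shared with high-dose BMN/PAZA. As listed in the table of BMN and low-dose BMN/PAZA, without rescaling, the low-dose value was 1.18 times that of BMN, and on the common scale it was 0.525 times. In the table of PAZA and low-dose BMN/PAZA, the PAZA value equalled the value expected for the low dose (ratio 1), and the low-dose value was 1.5 times the value expected for PAZA. With the values of those tables, the Cdkn1a log2 difference of the low dose was 0.93 against Control, 0.043 against BMN, 0.91 against PAZA and 0.88 against the high dose, in place of 0.07, -0.82, -0.20 and 0.02. The direction against BMN and PAZA thus turned with the table. For Cdkn1a, BMN and high-dose BMN/PAZA each have the same value in both of their tables, and Control appears in 1 table, so the BMN and Control levels of Cdkn1a could not be checked in this way.

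**Figure D2:**
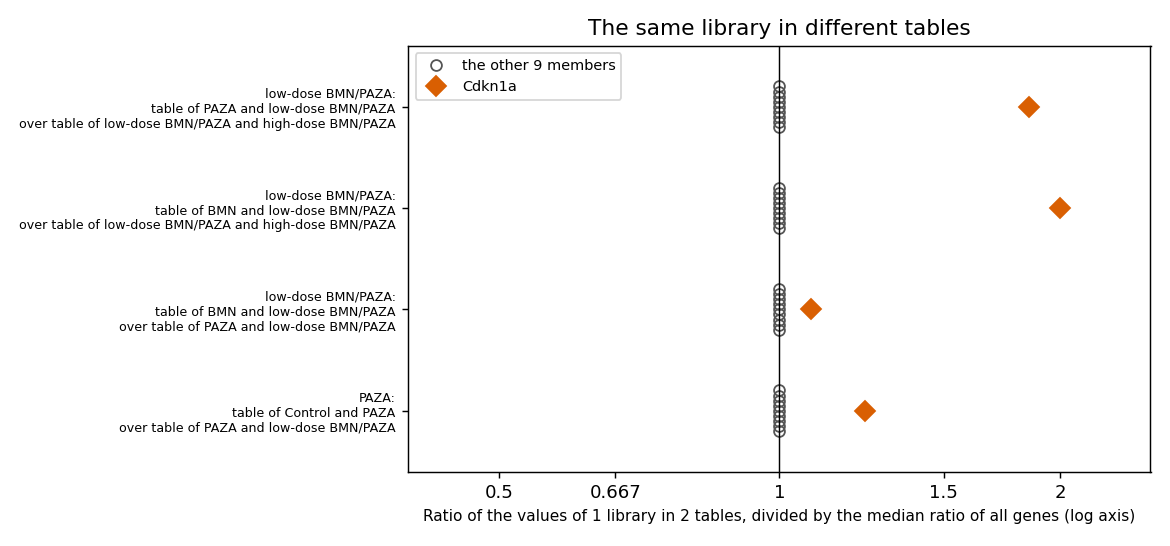
Ratio of the values of 1 library in 2 tables, divided by the median ratio over all genes (log axis), for the 4 pairs of tables whose values are not identical. The 9 other genes lie at 1 in every pair, and Cdkn1a lies at 1.08 to 2.

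Among the growth arrest and stress genes, Zmat3 (chr3:32334792-32366014, minus strand), an RNA-binding zinc finger protein, had a level of 1.78 in Control, 3.35 in BMN, 1.61 in PAZA, 2.94 in low-dose and 2.03 in high-dose BMN/PAZA. BMN and low-dose BMN/PAZA were the highest. The log2 difference from Control was 0.64 in BMN and 0.50 in low-dose BMN/PAZA. The BMN difference fell inside 1.5-fold under median-ratio scaling (0.575) and after centring on the median of all genes (0.550). Btg2 (chr1:134075170-134079120, minus strand), an antiproliferative regulator of mRNA decay, had levels of 4.91, 4.93, 4.01 and 5.07 in Control, BMN, PAZA and low-dose BMN/PAZA, and 1.89 in high-dose BMN/PAZA. The high-dose library alone stood apart. Its log2 difference was -1.03 from Control and -1.04 from BMN, and the low dose was above it by 1.07. Ccng1 (chr11:40748552-40755311, minus strand), cyclin G1, had levels of 48.3, 52.6, 44.7, 40.3 and 38.0 in Control, BMN, PAZA, low-dose and high-dose BMN/PAZA. Both BMN/PAZA libraries were lowest, by -0.26 and -0.34 in log2 from Control, inside 1.5-fold.

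Sesn2 (chr4:132492032-132510501, minus strand), which encodes a sestrin, restrains mTORC1 under stress and is also a target of ATF4. Its level was 2.90 in Control, 2.90 in BMN, 2.23 in PAZA, 1.90 in low-dose and 1.79 in high-dose BMN/PAZA. All 3 libraries with PAZA were below the 2 without it. The log2 differences of -0.27, -0.43 and -0.49 from Control were inside 1.5-fold, and with a pseudocount of 0.1 the low-dose and high-dose differences were past it, at -0.59 and -0.67. In a list of 10 genes made of Atf4 and its targets, 2 were higher and 1 lower in PAZA against Control (10.5% and 14% of all genes), and 1 was higher and 2 lower in BMN (13.2% and 6.89%). Ddit3, which encodes the stress factor CHOP, was listed at 0 in BMN and was at 7.83 in Control. In either BMN/PAZA library 0 were past 1.5-fold against Control (11.3% and 12.8% of all genes in the low dose, 8.49% and 18.1% in the high dose), and under median-ratio scaling 1 was higher in the high dose.

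Of the genes that act in apoptosis, Bax (chr7:45461697-45466898, minus strand), the pore-forming BCL2 family member of mitochondria, varied least. Its level was 25.3 in Control, 28.5 in BMN, 27.2 in PAZA, 21.8 in low-dose and 26.1 in high-dose BMN/PAZA, and no treatment was past 1.5-fold. Phlda3 (chr1:135766119-135769136, plus strand), an inhibitor of AKT signaling, had levels of 5.75 in Control, 3.44 in BMN, 3.30 in PAZA, 2.88 in low-dose and 4.95 in high-dose BMN/PAZA. Control and the high dose were the higher 2. The log2 difference from Control was -0.60 in BMN, -0.65 in PAZA, -0.80 in the low dose and -0.18 in the high dose. Trp53inp1 (chr4:11156431-11174379, plus strand), which takes part in p53-dependent cell death and autophagy, had levels of 12.1 in Control, 9.99 in BMN, 7.55 in PAZA, 7.55 in low-dose and 8.62 in high-dose BMN/PAZA. Control was the highest. The log2 difference from Control was -0.61 in PAZA and -0.61 in the low dose. Median-ratio scaling brought the PAZA differences of Phlda3 and Trp53inp1 to -0.56 and -0.50 and the low-dose difference of Trp53inp1 to -0.52, inside 1.5-fold.

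Without replicate error, the order of these levels within a gene has no spread to be held against. Between genes, the upper places were steady. Mdm2 and Ccng1 held the highest 2 places in every library, at the 81.2 to 86.0 percentile of all genes, and Bax was always 3rd. The rest lay lower and changed places, with Trp53 between 6th and 10th and Phlda3 between 5th and 8th. Sesn2 was at the 27.5 to 33.3 percentile and Zmat3 at the 26.0 to 33.6 percentile.

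The first question of the design is what each drug did alone. In PAZA against Control, 1 of the 10 genes was higher (Trp53) and 2 were lower (Phlda3 and Trp53inp1), against 10.5% and 14% of all genes. The median log2 difference was -0.10 over the 10 genes and -0.07 over all genes. In BMN against Control, 2 were higher (Cdkn1a and Zmat3) and 1 lower (Phlda3), against 13.2% and 6.89% of all genes. The median was 0.003 over the 10 genes and 0.09 over all, and -0.07 over the 10 genes under median-ratio scaling. Under median-ratio scaling and after centring Zmat3 was inside 1.5-fold, so that Cdkn1a was then the only gene of the 10 higher in BMN. In each of these comparisons 7 of the 10 genes were inside 1.5-fold.

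In low-dose BMN/PAZA against Control, none of the 10 genes was higher and 2 were lower (Phlda3 and Trp53inp1), against 11.3% and 12.8% of all genes, with medians of -0.23 over the 10 genes and -0.03 over all. With the values of the other tables Cdkn1a was also past 1.5-fold there, higher by 0.93. In high-dose BMN/PAZA against Control, none was higher and 2 were lower (Mdm2 and Btg2), against 8.49% and 18.1%, with medians of -0.26 and -0.17. Under median-ratio scaling the medians over the 10 genes were -0.13 in the low dose and -0.02 in the high dose, against 0.04 and 0.02 over all. The Control to PAZA comparison is within 1 table, and the others against Control set levels across tables. All 4 share the Control library.

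**Figure D3:**
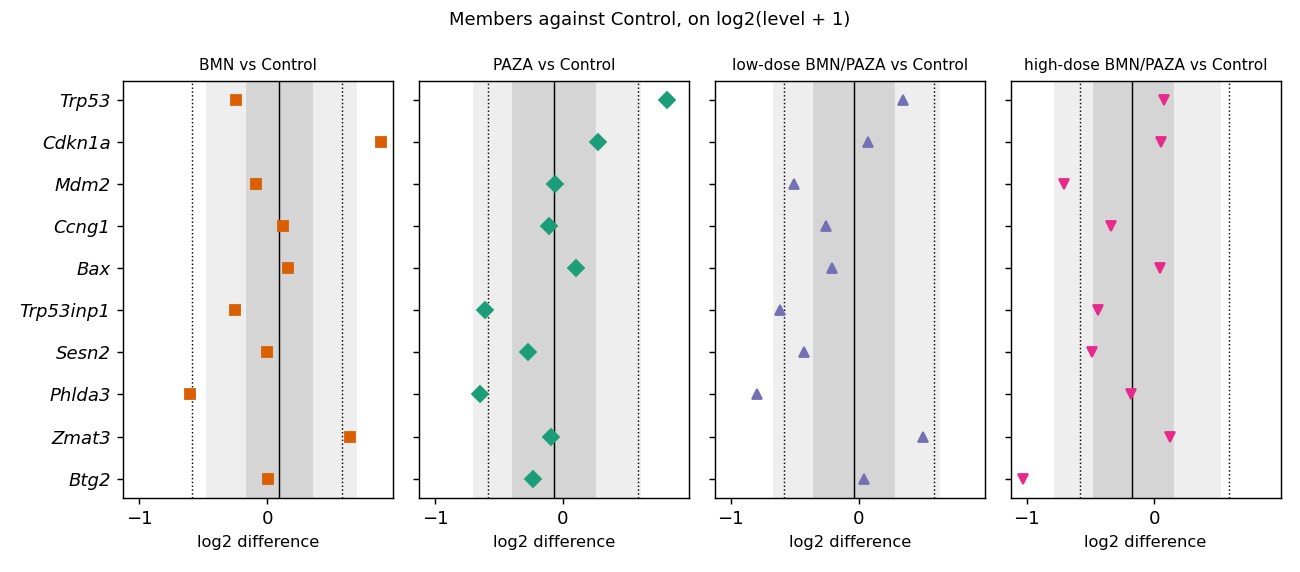
log2 difference of (level + 1) from Control for the 10 genes, 1 panel per treatment. Dark and light grey bands hold the interquartile range and the 10th to 90th percentiles of all genes, the solid line is their median and dotted lines mark 1.5-fold. Btg2 lies outside the light band in the high dose at -1.03, Cdkn1a in BMN at 0.89, Trp53 in PAZA at 0.82 and Phlda3 in BMN and the low dose at -0.60 and -0.80.

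The second question is how BMN in the azacytidine carrier differed from BMN alone and from the carrier alone. The labels give no dose for BMN alone or PAZA alone. The study describes both at the dose of low-dose BMN/PAZA, so in high-dose BMN/PAZA against BMN the carrier and the BMN dose change together and cannot be told apart. In low-dose BMN/PAZA against BMN, 1 of the 10 genes was higher (Trp53, 0.59) and 1 was lower (Cdkn1a, -0.82), against 9.41% and 18.6% of all genes. With the other tables neither was past 1.5-fold, at 0.57 for Trp53 and 0.043 for Cdkn1a. The median was -0.37 over the 10 genes and -0.14 over all, and 8 of the 10 lay below 0 and 2 above. Under median-ratio scaling the medians were -0.18 and 0.01, and 3 of the 10 lay above 0. In high-dose BMN/PAZA against BMN, which is within 1 table, none was higher and 3 were lower (Btg2, Cdkn1a and Mdm2), against 6.15% and 24% of all genes, with a median of -0.47 against -0.27. Under median-ratio scaling, which shifted the median of all genes by 0.27, 1 was lower (Btg2) and 1 higher (Phlda3, 0.71), and Bax and Trp53inp1 turned from -0.12 and -0.19 to 0.22 and 0.13. The median over the 10 genes was then -0.18. In low-dose BMN/PAZA against PAZA, 1 was higher (Zmat3, 0.59) and none lower, against 9.36% and 8.07%, with medians of -0.15 and 0.03. With the values of the other tables Zmat3 was inside 1.5-fold (0.57) and Cdkn1a was higher (0.91) in its place.

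The third question is the dose. The study describes the low and high doses for BMN and azacytidine alike, so the 2 drugs change together here and cannot be told apart. In low-dose against high-dose BMN/PAZA, Btg2 was higher (1.07) and Phlda3 lower (-0.62), against 12.5% and 6.5% of all genes. Cdkn1a was also higher, by 0.88 in place of 0.02, with the values of the other tables. The median was 0.07 over the 10 genes and 0.13 over all, and it was -0.06 over the 10 genes under median-ratio scaling. The summed neutrophil markers were 122 in the low and 233 in the high dose, and the muscle markers 11.2 and 215. Their part in the Btg2 and Phlda3 differences was not tested.

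A wider list of 44 p53 targets, of which 43 had a value, was read in the same way. The shares of all genes given beside the counts of the lists are those under the sum scaling. Under median-ratio scaling 13.7% were higher and 10.6% lower in PAZA, 11.0% and 8.30% in BMN, 14.1% and 9.75% in the low dose and 13.9% and 9.55% in the high dose against Control. They were 13.8% and 12.2% in the low dose and 12.6% and 10.6% in the high dose against BMN, 9.49% and 8.66% in the low dose against PAZA, and 9.28% and 9.18% in the low against the high dose. In BMN against Control 9 were higher and 2 lower, against 13.2% and 6.89% of all genes, with a median of 0.17 against 0.09 over all genes. Fibroblast and keratinocyte markers were also highest in BMN, and their part in these counts was not tested. Pmaip1, which encodes the BH3-only protein NOXA, was at 1.52 in Control and 8.97 in BMN, a log2 difference of 1.98. Sulf2, an extracellular sulfatase, was at 0.485 and 4.17, a difference of 1.80. Bbc3, which encodes PUMA, was at 1.42 and 2.89, a difference of 0.69. Gadd45a, a growth arrest and DNA damage gene, was lower, at 46.4 and 28.5, and Pidd1, a death domain protein, was at 1.47 and 0.278. Of the cell death targets named here, Pmaip1 and Bbc3 were thus higher past 1.5-fold in the BMN library, Pidd1 was lower and Bax was inside it.

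The same list was split in the other treatments. In PAZA against Control 6 of 43 were higher and 3 lower, against 10.5% and 14% of all genes (median -0.02). Sulf2 was higher at 2.23, as were Eda2r, a TNF receptor family member (0.110 in Control and 1.34 in PAZA), and Crip2, a LIM domain protein (9.10 and 19.2). Gadd45a was lower, at 26.2. In low-dose BMN/PAZA against Control 8 were higher and 7 lower, against 11.3% and 12.8% (median 0.10), among them the glutathione peroxidase Gpx1 (118 and 235), Triap1, an inhibitor of apoptosis (4.42 and 9.05), and Psrc1, a spindle protein (0.635 and 3.07), all higher. In high-dose BMN/PAZA against Control 2 were higher and 9 lower, against 8.49% and 18.1% (median -0.03), a share of lower genes near that of all genes. Pltp, a phospholipid transfer protein, was higher (5.90 and 11.9), and Bcl2l1, which encodes the survival protein BCL-XL, was lower (30.7 and 15.4). Median-ratio scaling gave 8 higher and 3 lower in PAZA, 10 and 7 in the low dose and 4 and 7 in the high dose, and turned the PAZA and high-dose medians to 0.04 and 0.10.

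Against BMN, the low dose had 8 of the 43 targets higher and 14 lower, against 9.41% and 18.6% of all genes (median -0.32 against -0.14). The high dose had 1 higher and 15 lower, against 6.15% and 24% (median -0.30 against -0.27). Pmaip1 was lower in both, at 3.39 and 2.74 against 8.97. Bbc3 was also lower in both, at 0.708 in the low and 1.49 in the high dose against 2.89. So was Sulf2, at 1.67 and 0.847 against 4.17. Against PAZA the low dose had 6 higher and 6 lower, against 9.36% and 8.07% of all genes, and against the high dose 6 higher and 4 lower, against 12.5% and 6.5%. Median-ratio scaling gave 9 higher and 11 lower in the low dose and 4 higher and 10 lower in the high dose against BMN, and brought the high-dose median to 0.003. Fuca1, a lysosomal fucosidase, was at 70.2 in the low dose, 38.1 in PAZA and 22.1 in the high dose. Gtse1, a mitotic inhibitor of p53, was at 2.22, 4.97 and 4.56.

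Of the 43 targets, 6 had values off the constant between tables, as Cdkn1a did, namely Ak1, Ddb2, Ercc5, Fas, Rrm2b and Xpc. For 5 of them, the BMN value was 2 times the low-dose value of the table shared with the high dose (after the constant, within 0.5%). Fas, at 1.02 times, was not among these. Xpc, which recognises damaged bases in nucleotide excision repair, was at 6.95 in Control, 17.0 in BMN, 4.62 in PAZA, 7.59 in low-dose and 5.36 in high-dose BMN/PAZA, so its BMN level is 1 of those at 2 times. Among all genes, 161 had such a BMN value and 435 were off a constant. Without the 6 genes, 7 targets were higher and 2 lower in BMN against Control, 8 and 4 in the low dose against Control, 2 and 7 in the high dose against Control, 8 and 10 in the low dose against BMN, and 1 and 11 in the high dose against BMN. The median of the low dose against BMN was then -0.03 in place of -0.32.

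**Figure D4:**
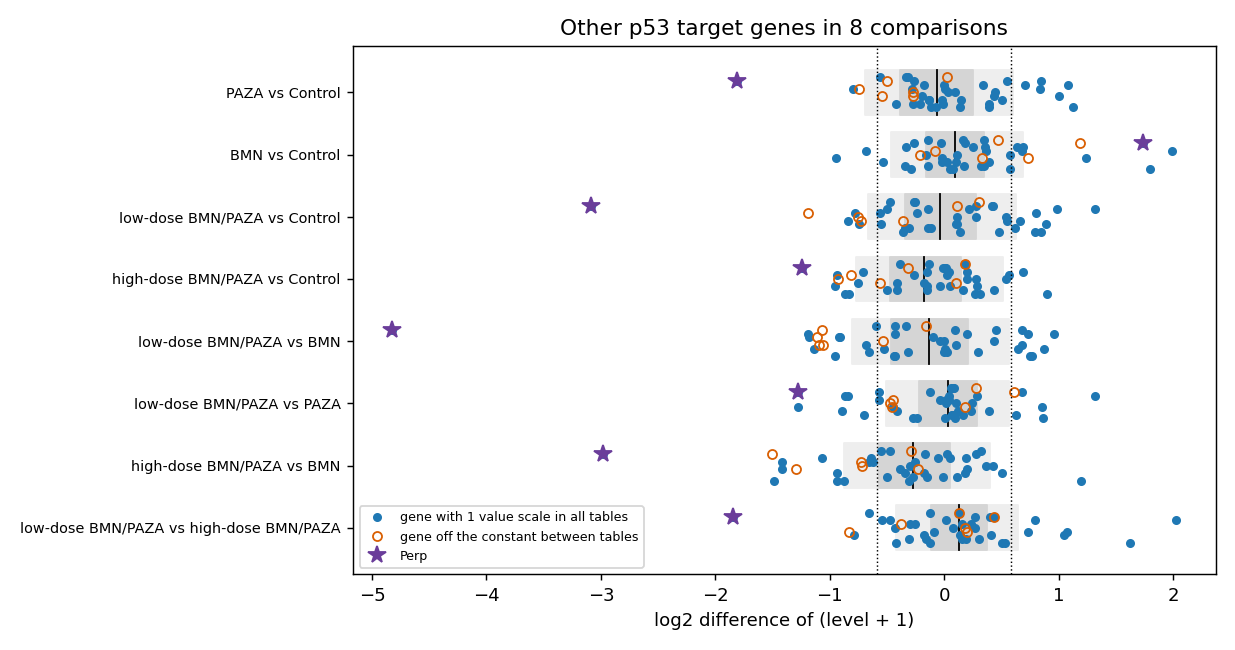
log2 difference of (level + 1) of 43 other p53 target genes in 8 comparisons, 1 point per gene. Grey bands hold the interquartile range and the 10th to 90th percentiles of all genes, and open points are the 6 genes off the constant. Perp, shown as a star, is the lowest of the 43 in 6 of the 8 comparisons, down to -4.82 in the low dose against BMN, and is among the higher genes in BMN against Control at 1.74.

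Perp, a desmosome protein of stratified epithelium that p53 and its relative p63 both switch on, had the widest range of the listed targets on the log2 scale. Its level was 11.2 in Control, 39.7 in BMN, 2.48 in PAZA, 0.439 in low-dose and 4.16 in high-dose BMN/PAZA. Trp63, the p63 gene of basal keratinocytes, was at 1.39, 6.24, 0.241, 0.115 and 0.737 in the same order. The keratinocyte markers Krt5, Krt1 and Dsg1a were listed at 0 in low-dose BMN/PAZA, and Krt14 was at 0.511 there and at 62.9 in BMN. The summed keratinocyte markers, Perp and Trp63 had the same order of libraries, highest in BMN and lowest in the low dose, and their part in the Perp differences was not tested.

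**Figure D5:**
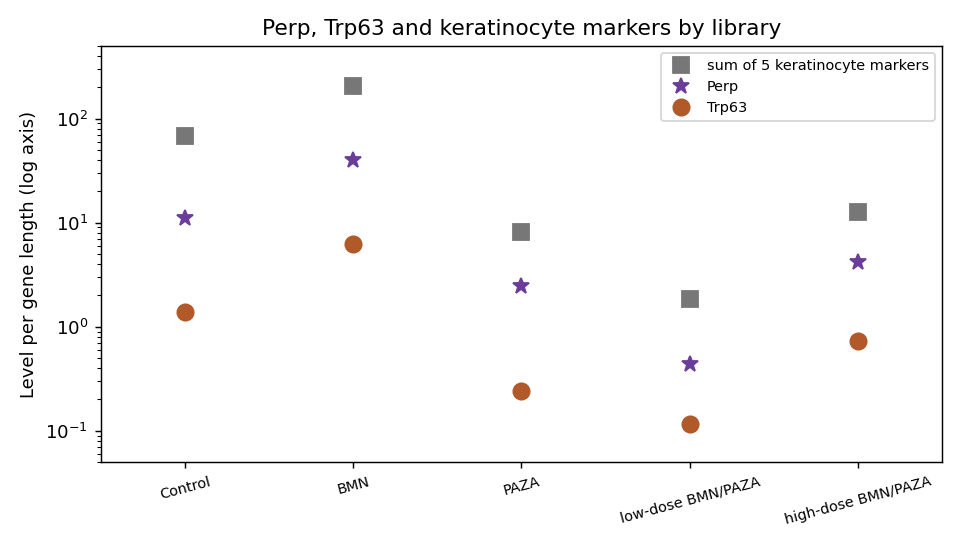
Levels of Perp, Trp63 and the sum of 5 keratinocyte markers in the 5 libraries (log axis). All 3 are highest in BMN (39.7, 6.24 and 205) and lowest in low-dose BMN/PAZA (0.439, 0.115 and 1.85).

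Of 18 regulators of p53, 16 had a value. In BMN against Control 3 were higher and 1 lower, against 13.2% and 6.89% of all genes, or 2 and 2 under median-ratio scaling, against 11.0% and 8.30%. Chek2, the checkpoint kinase that phosphorylates p53, was at 7.15 in Control, 13.9 in BMN, 10.0 in PAZA, 12.9 in low-dose and 5.72 in high-dose BMN/PAZA, so BMN and the low dose were highest. Atm, the kinase of double-strand breaks, was at 26.4 in Control and 16.7 in BMN. Trp63 and Pml, a nuclear body protein, were the other 2 higher in BMN, and Pml was off the constant between tables. In PAZA against Control 0 were higher and 2 lower, against 10.5% and 14%, namely Trp63 and Trp53bp1, a break-binding partner of p53 (63.4 and 38.3). The acetyltransferase Kat5 was higher in both BMN/PAZA libraries, at 61.4 and 57.5 against 34.8 in Control. The low dose also had Chek2 higher and Trp63 lower against Control, 2 and 1 in all against 11.3% and 12.8% of all genes. The high dose had 1 higher and 0 lower, against 8.49% and 18.1%.

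Against BMN, 1 regulator was higher and 2 were lower in the low dose (9.41% and 18.6% of all genes), and 0 and 2 in the high dose (6.15% and 24%). The ubiquitin ligase Rchy1 was at 28.7 in the low dose and 15.1 in BMN, and Chek2 was lower in the high dose. Against PAZA 1 was higher and 1 lower, Kat5 and Pml (9.36% and 8.07%), and against the high dose 2 were higher and 1 lower in the low dose (12.5% and 6.5%). Median-ratio scaling gave 3 higher and 2 lower in the high dose against BMN, and 1 higher and 3 lower in the low against the high dose. For Pml the direction against PAZA turned from -0.60 to 0.84 with the values of the other tables.

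Of 20 cell cycle genes that p53 and p21 repress through the DREAM complex, 20 were above Control in BMN, and 16 under median-ratio scaling. The median of all genes was also above 0 there, and at 0.02 under median-ratio scaling. Past 1.5-fold, 3 of the 20 were higher and none was lower, against 13.2% and 6.89% of all genes, and the counts were the same under median-ratio scaling. The median was 0.41, against 0.09 over all genes. Cdc25c, a phosphatase that starts mitosis, was at 2.71 in Control, 9.51 in BMN, 5.98 in PAZA, 5.24 in low-dose and 10.5 in high-dose BMN/PAZA, and the mitotic kinase Plk1 was at 12.8, 22.7, 25.3, 15.1 and 17.4. In PAZA against Control 7 of the 20 were higher and 2 lower, against 10.5% and 14% of all genes, or 8 and 0 under median-ratio scaling. In the low dose 3 were higher and 3 lower, against 11.3% and 12.8%, or 5 and 3 under that scaling. In the high dose 1 was higher and 0 lower, against 8.49% and 18.1%, or 3 and 0. Against BMN, 0 were higher and 7 lower in the low dose (9.41% and 18.6% of all genes) and 0 and 6 in the high dose (6.15% and 24%), and under median-ratio scaling 1 and 4, and 0 and 1. Mki67, a marker of cycling cells, was at 154 in Control, 207 in BMN, 97.0 in PAZA, 94.2 in low-dose and 108 in high-dose BMN/PAZA. Against PAZA 1 was higher and 2 lower in the low dose (9.36% and 8.07%), and against the high dose 3 and 2 (12.5% and 6.5%), or 1 and 3 under median-ratio scaling.

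Of 5 other CDK inhibitors with a value, none was past 1.5-fold in BMN against Control, where 13.2% of all genes were higher and 6.89% lower. Cdkn1c, which encodes p57 and is an imprinted gene, was at 0.779 in Control, 0.555 in BMN, 8.12 in PAZA, 0.606 in low-dose and 1.49 in high-dose BMN/PAZA, so PAZA alone was high. Cdkn2c, which encodes p18, was at 6.69, 6.79, 2.67, 7.71 and 3.27, lowest in PAZA and the high dose. Of 13 BCL2 family genes, 3 were higher and 3 lower in PAZA against Control (10.5% and 14% of all genes), 2 and 1 in BMN (13.2% and 6.89%), 2 and 1 in the low dose (11.3% and 12.8%), and 0 and 2 in the high dose (8.49% and 18.1%). Median-ratio scaling gave 3 and 2 in PAZA and 1 and 2 in the high dose. Bmf, a BH3-only gene, was at 2.76 in Control and 0.176 to 0.502 in the 4 treatments, the only 1 of the 13 lower in all 4.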

How the data were processed

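RNA was sequenced from 5 LLC libraries, 1 per group. The authors mapped reads with HISAT2 to GRCm38 and quantified them with StringTie, per the labels, in versions not given in the sources used here, and each of the 5 deposited tables holds 2 groups. No unit is named, and the deposited values were read as FPKM. All columns belonged to a sample. Control and PAZA were taken from their shared table, BMN and high-dose BMN/PAZA from theirs, and low-dose BMN/PAZA from its table with the high dose. For a symbol on several rows, the row with the highest mean was kept, and each library was scaled to 1000000 over 13979 shared symbols. Differences used a pseudocount of 1, and genes at 0 in both libraries were left out.

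The genes and lists were chosen with earlier results of these data known. Named genes were the 10 p53 genes and, per other list and comparison, at most 3 in each direction with the largest difference past 1.5-fold and a level of at least 1 in 1 of the 2 libraries, and the 3 genes most like Trp53 and Cdkn1a. Some of these genes are not reported here. Dsg1a and the listed genes off the constant between tables fall outside this rule and were named after their values were seen. Values more than 0.5% from the median ratio of 2 tables were called off the constant. In simulated tables of 13979 genes, all 150 altered values were found and 0 others. Positions are from GENCODE M21 and promoter sequences from RefSeq (GRCm38.p6). Cdkn2a, Trp73, Trp53cor1, Bik, Hrk, Ly6g, Lor, Plin1 and Retn were not analysed here. Strand settings are not given in the sources used here, and Bax, Cdkn1a and Sesn2 each overlap 1 other annotated gene. Alternatives were a pseudocount of 0.1, median-ratio scaling, a level filter, summed rows, the other tables and a 2-fold limit. Omission of Cdkn1a, of genes off the constant and centring were chosen after seeing the data. Software was matplotlib 3.10.9, pandas 2.3.3, numpy 2.4.6 and Python 3.11.15.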

Additional observations from a re-analysis of the deposited data

Results flagged for a closer look

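Values outside the tables used for the common scale differed for Cdkn1a. The low-dose BMN/PAZA value in the table shared with BMN was 2 times that in the table shared with high-dose BMN/PAZA, after the constant between the tables. In the table of PAZA and low-dose BMN/PAZA, the low-dose value was 1.5 times the PAZA value of the table with Control, after the constant. The other 9 genes held no such difference. Over the 13142 genes compared in that table, 196 had a PAZA value at the level expected for the low dose, within 0.5%, and of these 166 had a low-dose value at 1.5 times the level expected for PAZA and 24 at the same level. Cdkn1a was 1 of the 166.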

How the results depend on the processing

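No paired analysis was possible because each group holds 1 library, and no library could be left out. No median over the 10 genes shifted by as much as 1.5-fold under any setting, and of 18 differences past 1.5-fold, 17 kept their direction in every setting and 8 stayed past it in all. With a pseudocount of 0.1, the number of the 10 genes past 1.5-fold was 4 in the low dose against Control, 2 in the low dose against PAZA and 5 in the high dose against BMN. Under median-ratio scaling, and also after centring on the median of all genes, it was 1 in PAZA, in the low dose and in the high dose against Control, and centring left 0 in the low dose against PAZA. In BMN against Control both left 1 higher and 1 lower, since Zmat3 was at 0.575 and 0.550. With the other tables it was 0 in the low dose against BMN, where Cdkn1a turned from -0.82 to 0.043, and 1 without Cdkn1a. The other tables also put Cdkn1a past 1.5-fold in the low dose against Control (0.93), PAZA (0.91, where Zmat3 at 0.57 no longer was) and the high dose (0.88). A 2-fold limit left 1 each in the high dose against Control, the high dose against BMN and the low against the high dose, Btg2 each time, and 0 in PAZA, BMN and the low dose against Control and in the low dose against BMN and against PAZA. Pml turned to 0.84 in the low dose against PAZA and Ercc5 to 0.62 in the low against the high dose with the other tables. Why these values differ between tables was not tested.

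Median-ratio scaling shifted the median of all genes by 0.19 in the high dose against Control, 0.15 in the low dose and 0.27 in the high dose against BMN, and -0.12 in the low against the high dose. It raised the share of higher genes among all genes past 1.5-fold from 42.8% to 56.5% in PAZA, 46.8% to 59.1% in the low dose and 32.0% to 59.2% in the high dose against Control, from 33.6% to 53.1% in the low dose and 20.4% to 54.3% in the high dose against BMN, and lowered it from 65.8% to 50.3% in the low against the high dose. Depth is unknown, so counting error at low levels such as those of Trp53, Zmat3 and Sesn2 could not be given.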
